A study of Mus musculus with 29 samples.

Results

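The tRNA-Gly and tRNA-Pro genes described here are the loci of the RPC4 table whose name carries the isotype glycine or proline. They were picked by name alone, without use of any score, and make up 47 of the 433 tRNA genes and of the 646 Pol III loci in the table. The 29 tRNA-Gly genes carry the anticodons GCC (14 genes), TCC (7), CCC (7) and ACC (1). The 18 tRNA-Pro genes carry TGG (8 genes), AGG (7) and CGG (3). Individual genes are called n-Tg (glycine) and n-Tp (proline), as in the table.

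Liver was taken from male C57BL/6 mice of 12-14 weeks before partial hepatectomy (PH, surgical removal of part of the liver), called TP0, and at 36, 48 and 60 h (TP36, TP48, TP60). All animals, the TP0 group included, had been kept for 2 weeks in 12 h of light and 12 h of dark with food at night, and the labels name no engineered allele. PH was always performed at the start of the light phase, so that TP36 and TP60 fell in the dark phase with food. At these times the time after PH cannot be told apart from time of day and feeding. The labels name no group operated without removal of liver. Each of the 8 libraries (2 replicates per time point) came from the pooled livers of 3 mice, so that the spread between replicates is a spread between pools, and whole liver was used, so that the cell type that carries a signal cannot be told apart. RPC4, a subunit of RNA polymerase III (Pol III), was immunoprecipitated and the DNA bound to it was sequenced (ChIP-seq).

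Transfer RNAs bring amino acids to the ribosome, and a tRNA gene family encodes the same anticodon many times over in the genome. Pol III is brought to a tRNA gene through promoter elements inside the gene, the A box and the B box, which are bound by the factor TFIIIC, and it stops at a run of T residues downstream of the gene. Glycine and proline are both abundant in collagens, and liver is a large producer of secreted proteins.

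RPC4 scores compare ChIP with input fragments, as a log2 ratio, over the gene and 150 bp on each side. Occupied genes are those above the authors' cutoff, set from bins across the genome, in 1 or both libraries of the time in question. In replicate 1 the 4 cutoffs were 0.81 to 0.87, and in replicate 2 they were 1.33 to 1.55. Changes between time points were tested with limma over all 646 loci, and a gene counted as risen or fallen when its Storey q value was under 0.05 and it was occupied at 1 of the time points compared. Fragment counts are unknown, so that the spread between the 2 libraries is the only measure of error, and the median standard error of the TP36 change at an occupied member was 0.50. Where genes lie close together or are copies of each other, the same fragments can count for several of them. Fragments that match the genome at several places made up at most 2.12% of the score at 36 members, and at 5 members, all tRNA-Gly genes, over 50% did in at least 1 library.

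The gene bodies were read from the NCBI37 genome, the build of the table, and the anticodon stood at its place in all 47. Only 20 different bodies, of 71 to 74 bases, occurred among the 47 genes, 12 for glycine and 8 for proline. The bodies that matter for the comparisons below are given 5′ to 3′, with the A box, the anticodon and the B box in capitals.
Gly-GCC, the body of n-Tg13 (chr11:68932296-68932366, minus strand), shared by n-Tg12, n-Tg14, n-Tg15, n-Tg16, n-Tg27, n-Tg28 and n-Tg29: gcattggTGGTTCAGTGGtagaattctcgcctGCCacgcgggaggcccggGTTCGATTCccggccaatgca
Gly-GCC, the body of n-Tg17 (chr1:172996762-172996832, plus strand), shared by n-Tg18 and n-Tg19: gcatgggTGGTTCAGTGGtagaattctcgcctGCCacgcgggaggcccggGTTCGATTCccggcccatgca
Gly-GCC, the body of n-Tg11 (chr1:74863321-74863391, minus strand): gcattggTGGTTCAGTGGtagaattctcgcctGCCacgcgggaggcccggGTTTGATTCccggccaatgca
Gly-GCC, the body of n-Tg9 (chr4:132670411-132670481, minus strand), which stayed without RPC4: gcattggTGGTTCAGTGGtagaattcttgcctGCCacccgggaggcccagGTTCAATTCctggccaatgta
Gly-TCC, the only body of that family, from n-Tg26 (chr3:96304932-96305003, minus strand): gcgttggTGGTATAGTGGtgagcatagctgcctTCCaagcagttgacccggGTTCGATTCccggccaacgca
Gly-CCC, the body of n-Tg5 (chr3:96155090-96155160, minus strand), shared by n-Tg4: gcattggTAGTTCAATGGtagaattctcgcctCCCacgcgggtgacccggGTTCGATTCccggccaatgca
Gly-CCC, the body of n-Tg7 (chr17:26012033-26012103, plus strand), shared by n-Tg8: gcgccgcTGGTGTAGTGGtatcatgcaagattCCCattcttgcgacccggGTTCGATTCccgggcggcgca
Pro-CGG, the only body of that family, from n-Tp10 (chr17:23677882-23677953, plus strand): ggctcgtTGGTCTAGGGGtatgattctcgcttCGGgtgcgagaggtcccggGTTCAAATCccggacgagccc
Pro-AGG, the body of n-Tp5 (chr3:51163329-51163400, plus strand), shared by n-Tp2, n-Tp3, n-Tp4, n-Tp6 and n-Tp7: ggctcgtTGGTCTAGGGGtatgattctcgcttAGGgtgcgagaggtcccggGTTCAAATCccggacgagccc
Pro-AGG, the body of n-Tp1 (chr1:78294370-78294441, plus strand), which stayed without RPC4: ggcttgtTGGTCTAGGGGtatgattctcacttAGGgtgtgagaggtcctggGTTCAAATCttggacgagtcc
Positions in a body are counted from 1 at its 5′ end, and a difference is written with the base of the commonest body of the family first. The n-Tg17 body differs from that of n-Tg13 by T5G and A66C, n-Tg11 by C54T, which lies in the B box, and n-Tg10 by A56G in the same box.

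The A box was searched within the gene by its degenerate consensus and the B box as GTTCGANTC, on the gene's own strand, with the best match taken. All 47 members held an exact A box, as did 93.8% of the other 386 tRNA genes. An exact B box stood in 24 of the 29 tRNA-Gly genes and in none of the 18 tRNA-Pro genes, in each of which the best match was GTTCAAATC with 1 mismatch, against 36.8% of the other tRNA genes. A run of at least 4 T within 40 bases downstream was present at 45 members (95.7%) and at 85.0% of the other tRNA genes, and the exceptions were n-Tg9 and n-Tp1. The members lie on 12 chromosomes, most on chromosome 1 (13 genes), chromosome 3 (8) and chromosome 11 (6). By the protein-coding genes of the GENCODE annotation on the same build 42 are intergenic, 4 lie in an intron (n-Tg14 in Trim2, n-Tg15 and n-Tg16 in Vac14, n-Tp12 in Myh8) and n-Tg20 overlaps an exon of Fcgr3.

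Of the 47 members 40 were occupied in at least 1 library, and 31 passed the cutoff in all 8. The 7 silent members (14.9%) were n-Tg2 and n-Tg3 of the CCC family, n-Tg9 and n-Tg15 of the GCC family, n-Tp1 of the AGG family and n-Tp12 and n-Tp13 of the TGG family. Their scores in the 8 libraries ran from -0.72 to 0.85. Among the other tRNA genes 128 of 386 (33.2%) were silent by the same rule, and the difference in shares was not tested. Much of that share came from tRNA-Cys (50 of 57 silent) and tRNA-Ala genes (20 of 40). The silent share was 8.33% for tRNA-Arg, 11.1% for tRNA-Thr and 12.5% for tRNA-Gln genes, so that a low share is not particular to the members. Silence went along with sequence at some genes and not at others. n-Tg9 differs from the commonest GCC body at 6 positions, n-Tp1 from the AGG body at 7, n-Tp12 and n-Tp13 from the TGG body at 9 and 6, and n-Tg2 from the CCC body of n-Tg5 at 10, with 2 mismatches in the B box. n-Tg15, in contrast, has the same 71 bases as n-Tg13, and n-Tg3 differs from the n-Tg5 body only by A9G and G38T. Differences did not always go with silence. n-Tp11 differs from the TGG body at 7 positions and was occupied after PH. n-Tg7 and n-Tg8 differ from the n-Tg5 body at 24 positions and were occupied at TP0.

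At TP0 32 members were occupied, and the mean score of the 40 genes occupied at any time ran from 0.09 to 5.67 with a median of 4.10. The levels fell into a large high group and a thin lower one: 23 genes had a mean TP0 score of at least 3 (3.64 to 5.67), 8 lay between 1 and 3 (1.17 to 2.52) and 9 lay under 1. The bounds of 1 and 3 were chosen after the scores were seen. The highest TP0 mean in the GCC family was that of n-Tg13, at 5.68 and 4.95 in the 2 libraries (5.31 ± 0.51, SD, n = 2). In the TCC family it was that of n-Tg26, at 5.77 and 5.56 (5.67 ± 0.15), in the CCC family that of n-Tg7, at 5.15 and 4.798, and in the AGG family that of n-Tp4, at 4.94 and 5.28. The leading genes of the CGG and TGG families were n-Tp8 (4.49 and 4.98) and n-Tp18 (4.93 and 5.06). All of these genes lie far above the lower group in both libraries, and the order among them was not tested. The plot of scores by time point shows both groups in each of the larger families.

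**Figure D1:**
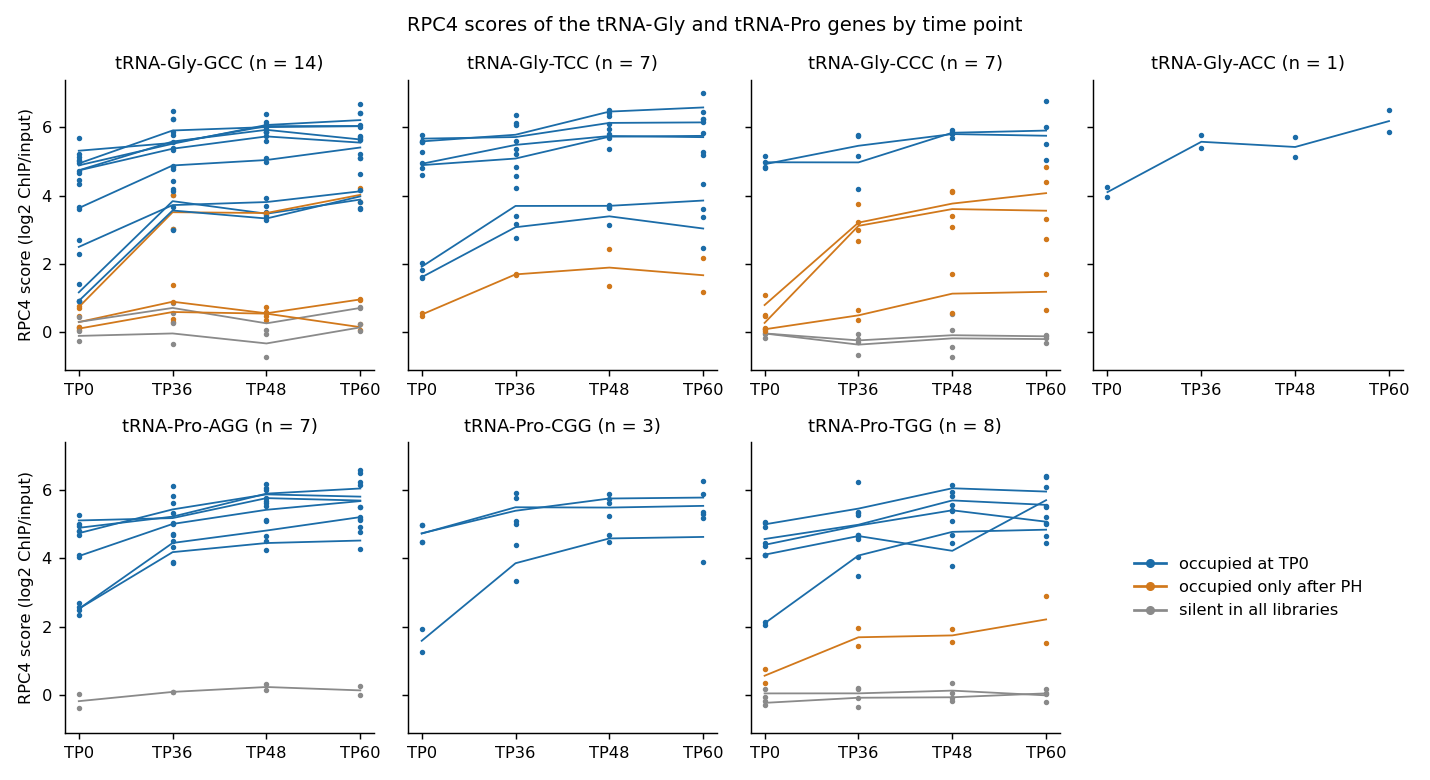
RPC4 score (log2 ChIP/input) of each tRNA-Gly and tRNA-Pro gene at TP0, TP36, TP48 and TP60, by anticodon family; points are the 2 libraries, lines join their means, and colors give the occupancy class. At TP0 23 genes sit at or above a mean of 3.64 and the 7 silent genes stay between -0.72 and 0.85 throughout.

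The comparison of TP36 with TP0 asks how Pol III occupancy changed between the resting liver and the time at which hepatocytes replicate their DNA. TP36 fell in the dark phase, so that time after PH and time of day cannot be told apart. By TP36 12 members had risen and none had fallen, 8 of the 29 tRNA-Gly genes and 4 of the 18 tRNA-Pro genes, which is 25.5% of the members, and over all loci the share that rose was 21.8%. With the Benjamini-Hochberg adjustment 11 members had risen, against 14.2% of all loci. The scores of both TP36 libraries exceeded those of both TP0 libraries at 28 members (59.6%), close to the 55.9% of all loci. The median change of the members was 0.63 in log2, and that of all loci 0.68. Relative to the median of all loci, which itself moved up by 1.72, 6 members (12.8%) were called higher and 25 (53.2%) lower at TP36, near the 9.75% and 50.3% of all loci. The median of the loci that stayed below the cutoff in all libraries moved by 0.02. Because 1.72 exceeds the median change of a locus (0.68), a gene called lower can have risen more than the median locus. Calls relative to the median rest on q values, and some fail the Benjamini-Hochberg adjustment. The call rested on few libraries: 4 members were called without replicate 1 of TP0, 4 without replicate 2 of TP0, 4 without replicate 1 of TP36 and 27 without replicate 2 of TP36. The 4 genes were n-Tg5, n-Tg17, n-Tg18 and n-Tg19 each time. The share of all loci was not counted under these omissions, so that the counts do not show whether the members moved more than all loci. At the occupied members the scores of replicate 2 of TP36 lay below those of replicate 1 by a median of 0.99.

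The largest rise was that of the Gly-CCC gene n-Tg5, whose TP0 scores of 0.09 and 0.46 lay below the cutoff and whose TP36 scores were 3.24 and 2.99. The change was 2.84 ± 0.58 (SE), or 7.16-fold, with q = 0.0040. n-Tg6 of the same family went from 0.50 and 1.09 to 3.75 and 2.66 (change 2.41 ± 0.59, q = 0.0100). Both thus scored below the cutoff in the TP0 libraries and above it in both TP36 libraries. The values of n-Tg5 are uncertain, because n-Tg4 has the same body and the same 500 bases on each side. Both were also called higher relative to the median of all loci (by 1.12 and 0.69), with adjusted p of 0.0159 and 0.133 by Benjamini-Hochberg. In the GCC family n-Tg17, with TP0 scores of 0.92 and 1.42 and TP36 scores of 4.01 and 3.66, rose by 2.67 ± 0.42 (6.37-fold, q = 0.0013). n-Tg18 went from 0.72 and 0.76 to 4.01 and 3.02 and n-Tg19 from 0.92 and 0.91 to 4.13 and 2.998, changes of 2.78 and 2.65. These 3 genes have 1 body and lie in neighboring copies of a repeat described below.

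Among the tRNA-Pro genes the largest rise at TP36 was that of n-Tp10 of the CGG family, from 1.25 and 1.92 to 4.38 and 3.34 (change 2.27 ± 0.57, 4.83-fold, q = 0.0104). When 1 of the 4 libraries compared was left out its change stayed between 1.75 and 2.79, and it was called only without replicate 2 of TP36. n-Tp17 of the TGG family went from 2.05 and 2.14 to 4.68 and 3.49 (1.98 ± 0.51, q = 0.0113), and n-Tp5 of the AGG family from 2.33 and 2.70 to 4.996 and 3.90 (1.93 ± 0.49, q = 0.0113). n-Tp6, an isolated AGG gene near the start of Opn1sw, changed by 1.66. In each of these 4 genes both TP36 libraries stood above both TP0 libraries. Relative to the median of all loci only n-Tp10 was called higher, by q value (0.0457) but not by Benjamini-Hochberg (adjusted p 0.227). The changes of n-Tp17, n-Tp5 and n-Tp6 were then 0.26, 0.21 and -0.06.

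The remaining genes past the threshold were n-Tg20, from 1.82 and 2.02 to 4.23 and 3.17 (1.78 ± 0.49, q = 0.0173), n-Tg24 (1.46, with an adjusted p of 0.0667 by Benjamini-Hochberg) and n-Tg1, the sole Gly-ACC gene. n-Tg1 was the only gene with a high TP0 level among the 12: its scores were 4.26 and 3.95 at TP0 and 5.76 and 5.39 at TP36 (1.47 ± 0.43, q = 0.0229). Its change relative to the median of all loci was -0.25, and that of n-Tg24 was -0.26. Both genes nonetheless rose by more than the median change of all loci, 0.68.

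The genes with the highest TP0 scores moved little by TP36. n-Tg13 scored 6.24 and 4.85 at TP36, so that its libraries spanned those of TP0 (change 0.23 ± 0.53, q = 0.417). n-Tg26, at 6.08 and 5.35, had a change of 0.05 ± 0.44, n-Tp4 one of 0.07 ± 0.50 and n-Tg7, at 5.76 and 4.18, one of -0.0035 ± 0.64. None of these differences exceeded the spread between libraries. Over the 23 members with a TP0 score of at least 3, the median change at TP36 was 0.55 and 1 gene rose, and 7 of the 8 genes between 1 and 3 rose, with a median of 1.86. Of all 16 members under 1, the 7 silent ones included, 4 rose and the median was 0.45, with changes from -0.33 to 2.84. Genes of an intermediate TP0 level thus made up most of those called. The same classes were not counted over all loci, so that nothing particular to the members follows. Of the 8, n-Tg17, n-Tg20 and n-Tg24 lie in 1 repeat and n-Tp5 and n-Tp17 are neighbors, so that they are not separate observations. Relative to the median of all loci, which moved by 1.72, the medians of the highest and the lowest class change sign. Because TP0 enters both the level and the change, the level was also taken from 1 replicate and the change from the other. Over all 47 members the Pearson correlation was then -0.38 (Spearman -0.28) with the level of replicate 1 and -0.10 (0.06) with that of replicate 2, so that no common slope was seen across the members. These values describe 47 genes in the same 4 libraries, which are not independent replicates.

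**Figure D2:**
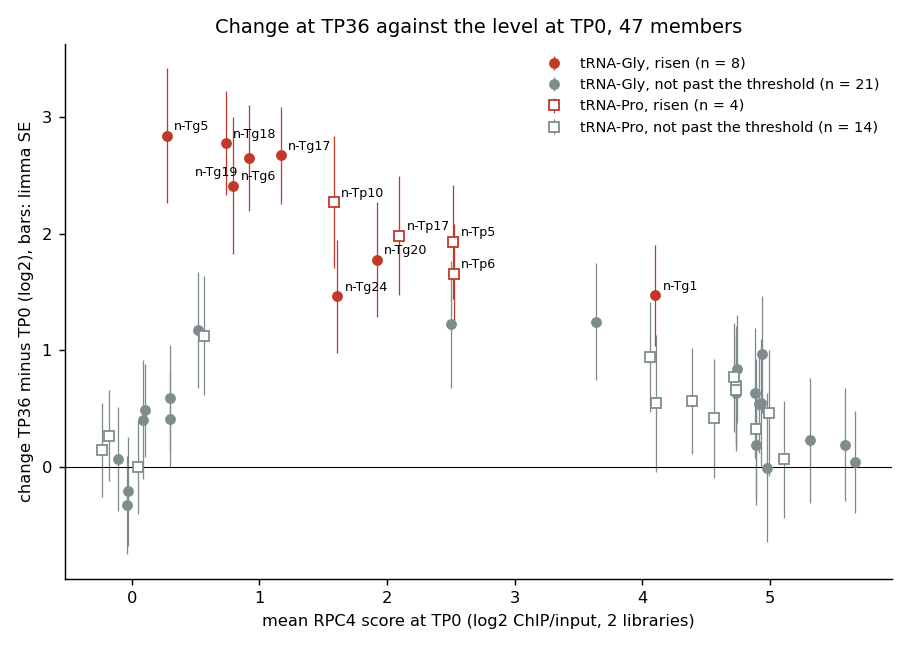
Change of the RPC4 score from TP0 to TP36 (log2, with the limma standard error) against the mean TP0 score, for the 29 tRNA-Gly genes (circles) and 18 tRNA-Pro genes (open squares); the 12 genes that rose are in red. Of these only n-Tg1 had a mean TP0 score above 3; relative to the median of all loci every change would be smaller by 1.72.

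At TP48 20 members had risen (42.6%, against 38.2% of all loci), and with Benjamini-Hochberg 11 (20.6% of all loci). At TP60 the numbers were 19 members (40.4%, against 43.2% of all loci) and 15 (27.2% of all loci). None fell at either time. The calls by q value were as many as the occupied members with an unadjusted limma p under 0.05 (20 and 19). The same held for all loci (247 and 279), so that the q value was no stricter than the unadjusted p. Both libraries stood above both TP0 libraries at 39 members at TP48 (83.0%, against 74.6% of all loci) and at 38 at TP60 (80.9%, against 69.0%). The comparisons share the TP0 libraries and are not independent of each other. The median change of the members was 1.04 at TP48 and 1.05 at TP60, and that of all loci 0.88 and 0.95. Relative to the median of all loci, which moved by 1.72 and 1.94, 8 members were called higher and 19 lower at TP48 (17% and 40.4%, against 12.1% and 39% of all loci), and 8 higher and 23 lower at TP60 (17% and 48.9%, against 13.2% and 45.8%). Most of the lower calls at TP48 failed the Benjamini-Hochberg adjustment. Those that passed were n-Tg13, n-Tg26, n-Tp4, n-Tp9 and n-Tp15. Of the higher calls at TP48 n-Tg5, n-Tg6, n-Tg18, n-Tp10 and n-Tp17 passed.

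All 12 genes called at TP36 were called at TP48 and TP60 as well. A further 5 were called at both later times, namely n-Tg10, n-Tg11, n-Tg23, n-Tp3 and n-Tp11, and 5 at 1 of them (n-Tg29, n-Tp14 and n-Tp16 at TP48, n-Tg27 and n-Tp15 at TP60). n-Tg5 scored 3.10 and 4.12 at TP48 and 2.72 and 4.40 at TP60. n-Tg18 reached 3.81 and 4.23 at TP60 (change 3.29 ± 0.44, 9.76-fold, q = 2.2e-04), and n-Tp10 3.88 and 5.37 (3.04 ± 0.57, q = 0.0012). Both remained higher relative to the median of all loci, by 1.35 and 1.11. Between TP36, TP48 and TP60 no member passed the threshold in limma with either adjustment. At an unadjusted p under 0.05 and among the occupied members there were 0 for TP48 against TP36, 0 for TP60 against TP36 and 1 for TP60 against TP48. This was n-Tp15, named after its values were seen, whose scores were 3.76 and 4.68 at TP48 and 4.998 and 6.41 at TP60.

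With all 6 libraries after PH against TP0, 28 members had risen (59.6%, against 53.6% of all loci), 17 tRNA-Gly and 11 tRNA-Pro genes, and 17 with Benjamini-Hochberg (31.7% of all loci). Their number was 14 without replicate 1 of TP0, 10 without replicate 2 of TP0 and 17 without replicate 2 of TP48 or of TP60. The 10 genes called under each of the 8 omissions were n-Tg5, n-Tg6, n-Tg17, n-Tg18, n-Tg19, n-Tg20, n-Tp5, n-Tp6, n-Tp10 and n-Tp17. The share of all loci was not counted under any omission of a library. Against the median of all loci 8 members (17%) were called higher and 27 (57.4%) lower, against 12.7% and 52.2% of all loci. The 8 were n-Tg5, n-Tg6, n-Tg17, n-Tg18, n-Tg19, n-Tp5, n-Tp10 and n-Tp17. Of these n-Tp5 and n-Tp17 did not pass with Benjamini-Hochberg (adjusted p 0.158 and 0.0633). The single comparisons likewise moved with the libraries: 9, 8 and 7 members were called at TP48 without replicate 1 of TP0, replicate 2 of TP0 and replicate 2 of TP48. At TP60 12, 11 and 10 were called without replicate 1 of TP0, replicate 2 of TP0 and replicate 2 of TP60, and 36 without replicate 1 of TP60.

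By family, the rises after PH by q value took in 9 of 14 GCC, 3 of 7 TCC, 4 of 7 CCC and the single ACC gene for glycine, and 4 of 7 AGG, 3 of 3 CGG and 4 of 8 TGG genes for proline. With Benjamini-Hochberg they took in 5 GCC, 3 TCC, 2 CCC, 1 ACC, 3 AGG, 1 CGG and 2 TGG genes. Of the 3 CGG genes 2 had an unadjusted limma p under 0.05. Over all loci the shares were 53.6% by q value and 31.7% with Benjamini-Hochberg, and differences between families were not tested. The median change after PH over all genes, silent ones included, was 0.85 for the 29 tRNA-Gly genes, 0.84 for the 18 tRNA-Pro genes, 0.87 for the 386 other tRNA genes and 0.83 for all loci.

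The families offer a direct look at copies with the same promoter elements, because 35 of the 47 members share their body with at least 1 other member, in 8 groups. The widest spread was in the group of 8 GCC genes with the n-Tg13 body. n-Tg12, n-Tg13, n-Tg27, n-Tg28 and n-Tg29 had mean TP0 scores of 4.74 to 5.31, whereas n-Tg14 scored 0.48 and 0.12, n-Tg15 0.46 and 0.15, and n-Tg16 0.15 and 0.06. After PH the 3 low copies stayed low. n-Tg14 scored 1.39 and 0.40 at TP36 and n-Tg16 0.89 and 0.29, above the cutoff in replicate 1 only, and n-Tg15 (0.85 and 0.57) was below it. Genes with the same 71 bases thus differed by up to 5.21 at TP0, far more than their libraries did. The low copies share a location inside introns, of Trim2 (n-Tg14) and Vac14 (n-Tg15 and n-Tg16), while the 5 high copies are intergenic. Multiple matches made up as much as 20.3% of the score at n-Tg14, 55.7% at n-Tg15 and 39.9% at n-Tg16, and at most 0.895% at the 5 high copies, and their part in the difference was not tested.

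The T runs that follow these bodies did not separate the copies. The first 40 bases downstream are shown for 1 high and 2 low genes, with the first T run in capitals.
n-Tg13, high: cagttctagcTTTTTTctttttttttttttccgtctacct
n-Tg14, low: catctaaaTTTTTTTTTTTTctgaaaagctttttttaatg
n-Tg16, low: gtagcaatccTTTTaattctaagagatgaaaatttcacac
The run began 11, 9 and 11 bases after the gene end and was 6, 12 and 4 T long. Beyond the gene the copies are unrelated: over 500 bases the identity between any pair of the 8 genes was at most 48.0% upstream and 48.6% downstream.

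Single differences in the B box went with an intermediate level. n-Tg10 (A56G) scored 3.66 and 3.61 at TP0 and n-Tg11 (C54T) 2.29 and 2.71, below the 5 high copies of the commonest body and above the 3 low ones. Both rose after PH, by 1.48 ± 0.41 (q = 0.0066) and 1.39 ± 0.44 (q = 0.0124), above the median change of all loci (0.83). Set against the median of all loci they changed by -0.31 and -0.40. There n-Tg11 was called lower by q value only, with an adjusted p of 0.274 by Benjamini-Hochberg. With 1 gene for each substitution, the substitution and the location cannot be told apart.

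The tRNA-Pro families showed the same kind of spread. The 3 CGG genes have 1 body, and at TP0 n-Tp8 and n-Tp9 scored 4.73 and 4.72 on average while n-Tp10 scored 1.59. At TP36 the range over the 3 genes had narrowed from 3.15 to 1.64, and at TP60 it was 1.15. The 6 AGG genes with the n-Tp5 body ranged over 2.59 at TP0 (2.52 to 5.11) and over 1.25 at TP36. The 4 TGG genes with the n-Tp17 body ranged over 2.47 at TP0 and 0.90 at TP36. In the GCC group of 8 no such narrowing was seen (5.21 at TP0, 5.31 at TP36). A difference between genes within a library is not touched by centring.

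**Figure D3:**
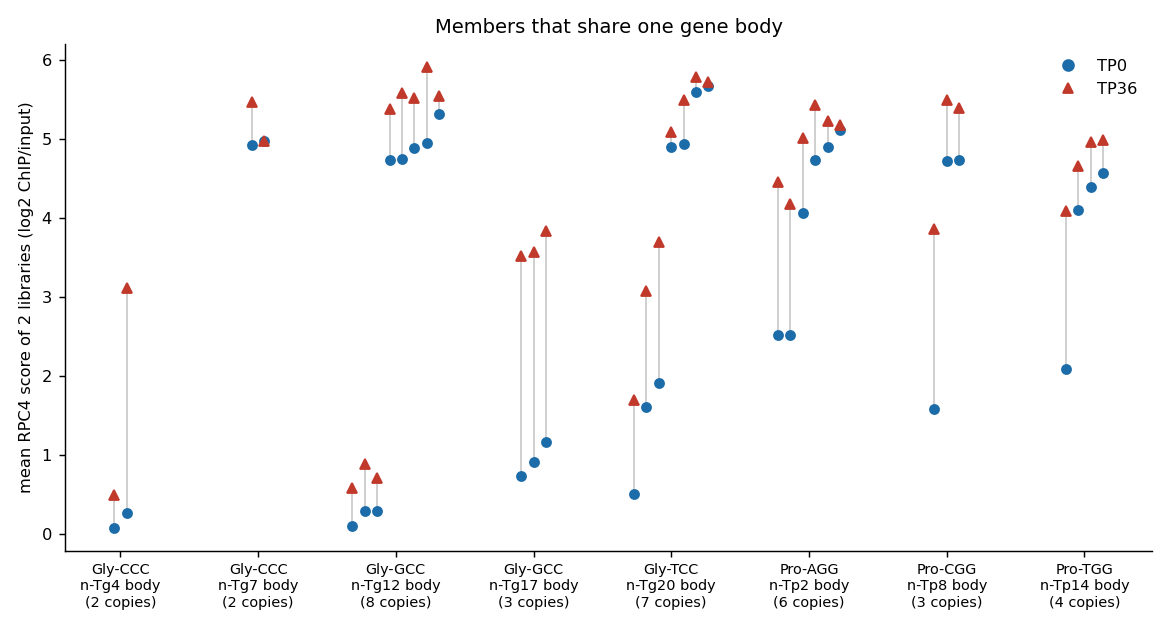
Mean RPC4 score (log2 ChIP/input, 2 libraries) at TP0 (circles) and TP36 (triangles) of each copy in the 8 groups of members that share 1 gene body; gray lines join the values of a gene. In the Gly-GCC group of 8 copies the TP0 scores run from 0.11 to 5.31, and the 3 low copies stay low at TP36.

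The CCC family holds 2 unlike kinds of gene. n-Tg7 and n-Tg8, whose body is 66.2% identical to that of n-Tg5, lie 306 and 256 bases from the start of a protein-coding gene (0610011F06Rik and Tia1) and had high scores at TP0, at means of 4.98 and 4.92. n-Tg2, n-Tg4, n-Tg5 and n-Tg6 lie on chromosome 3 between positions 96115177 and 96228026, and none of them was occupied at TP0. n-Tg5 and n-Tg4 are the same not only in the body but in all 500 bases upstream and downstream. Even so, n-Tg5 rose to 3.11 at TP36 while n-Tg4 scored 0.64 and 0.35. The share of multiple-match fragments was 1.93 to 6.41% at n-Tg5 and 94.5 to 100% at n-Tg4. Reads from these 2 loci have the same sequence, and how much RPC4 each carried cannot be told apart from the scores, so that both values are uncertain. n-Tg6, which differs from them by A9G and has no multiple-match fragments, rose as well.

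The TCC family shows how location went with both level and change, since its 7 genes have identical bodies. n-Tg21, n-Tg22, n-Tg25 and n-Tg26 had mean TP0 scores of 4.89 to 5.67, and none of them rose past the threshold in any comparison. n-Tg20, n-Tg24 and n-Tg23 had TP0 means of 1.92, 1.61 and 0.52, and each rose after PH, by 1.83 ± 0.40 (q = 0.0020), 1.56 ± 0.40 (q = 0.0044) and 1.23 ± 0.41 (q = 0.0138). Set against the median of all loci these changes were 0.04, -0.23 and -0.56. There n-Tg23 was called lower by q value only, with an adjusted p of 0.127 by Benjamini-Hochberg. All 3 genes rose by more than the median change of all loci after PH, 0.83. The change of the 3 low genes against that of the 4 high genes was not tested.

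These 3 TCC genes and the GCC genes n-Tg17, n-Tg18 and n-Tg19 lie in a tandem repeat on chromosome 1, next to Fcgr3. A unit holds 5 tRNA genes in the order Glu, Gly-TCC, Asp, Leu and Gly-GCC, the first 3 on the minus strand and the last 2 on the plus strand, and it occurs 3 times between positions 172994295 and 173012077, with 7671 and 7574 bp between successive Gly-GCC genes. Over 500 bases the flanks of the 3 TCC genes are at least 96.6% identical, and those of the 3 GCC genes at least 81.4%. On either side of the repeat lies another cluster of 4 tRNA genes, with n-Tg21 on one side and n-Tg22 on the other, and the GCC gene n-Tg12 stands alone between the first of these and the repeat.

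In the repeat, all tRNA genes were low at TP0, and outside it all were high. The 15 genes of the 3 units had mean TP0 scores of -0.16 to 1.92, whereas the 8 genes of both flanking clusters had scores of 3.77 to 5.60 and n-Tg12 had 4.74. By TP36 the 6 members in the repeat had reached means of 1.69 to 3.84, while n-Tg21, with 5.26 and 4.60 at TP0 and 6.14 and 4.83 at TP36, and n-Tg22, with 4.97 and 4.82 and then 5.60 and 4.57, had libraries that overlapped. The other 9 genes of the repeat moved in the same direction, by 0.91 to 2.46, and those of the flanking clusters by 0.26 to 1.25. At these 9 genes the highest share of multiple-match fragments in a library ran from 45.6% (n-Td3) to 100% (n-Td6). In the flanking clusters it was at most 1.75%. The 9 genes are thus not separate observations. Fragments with multiple matches gave, over all libraries, 23.0 to 31.2% of the score at n-Tg20, 65.1 to 79.3% at n-Tg24 and at least 99.2% at n-Tg23, so that the values of the TCC copies are not independent. At n-Tg19 the share was at most 8.19%, and at n-Tg17 and n-Tg18 it reached 37.8 and 50.4%. The rise of n-Tg19 at TP36 was 2.65. A low share does not make n-Tg19 a separate observation. Its body is that of n-Tg17, and its flanks are 94.8% (upstream) and 99.2% (downstream) identical to those of n-Tg17. The part of shared fragments in these rises was not tested.

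**Figure D4:**
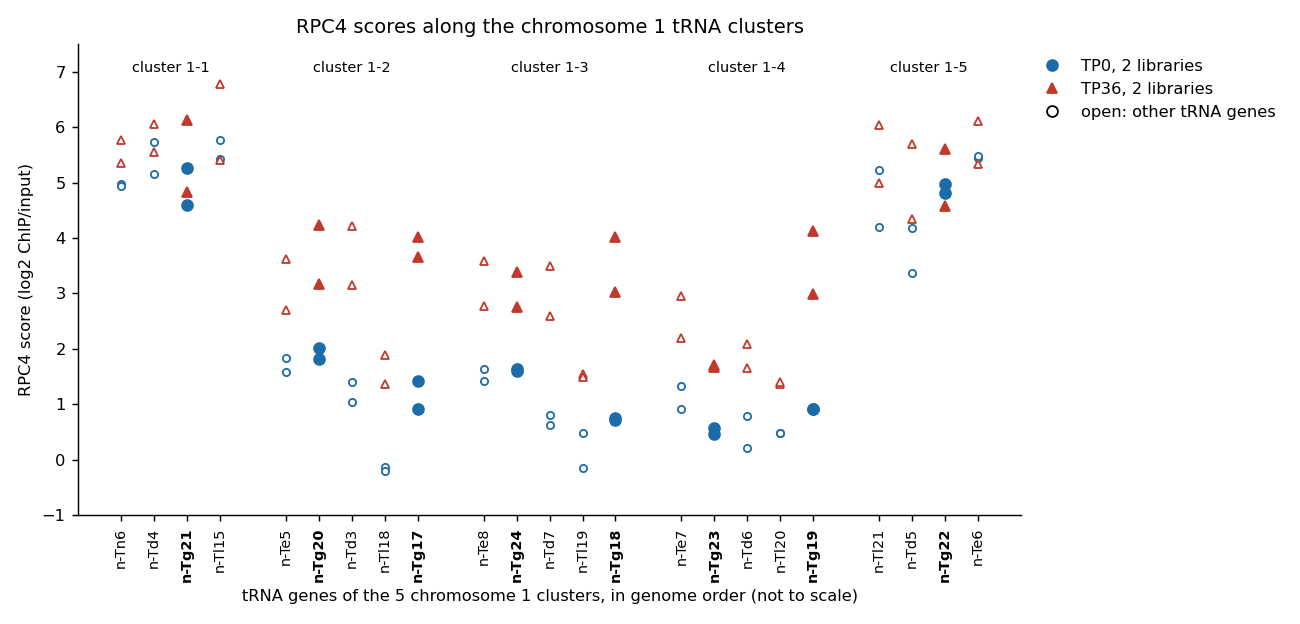
RPC4 score (log2 ChIP/input) of the 23 tRNA genes in the 5 neighboring clusters of chromosome 1, in genome order, at TP0 (circles) and TP36 (triangles), 2 libraries each; filled symbols and bold names are the Gly members. The 3 repeat units in the middle sit at or below a mean of 1.92 at TP0 and the outer clusters at or above 3.77.

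Members closer than 1.5 kb to each other had like scores. n-Tp17 and n-Tp5, 981 bp apart on chromosome 3, had TP0 means of 2.10 and 2.52 and changed by 2.47 ± 0.41 and 2.30 ± 0.40 after PH. n-Tp2 and n-Tp8, 565 bp apart on chromosome 1, stood at 4.74 and 4.73 and changed by 0.97 and 0.91. n-Tp18 and n-Tp7, 189 bp apart on chromosome 7, stood at 4.99 and 4.89, and each changed by 0.83. n-Tg16 and n-Tg15, 622 bp apart in Vac14, were both low throughout. n-Tp9 and n-Tg25, 821 bp apart on chromosome 11, stood at 4.72 and 5.59. The members of a pair have different bodies except n-Tg15 and n-Tg16. The bodies of n-Tp17 and n-Tp5, and of n-Tp2 and n-Tp8, differ only in the first base of the anticodon. That of n-Tp18 differs from that of n-Tp7 also by C30G and G38C. Moreover, fragments can reach from one gene into the window of its neighbor, and the windows of n-Tp18 and n-Tp7 overlap. Beyond that distance, n-Tp10 and n-Tp11 lie 2077 bp apart in a cluster on chromosome 17 and were both low at TP0 (1.59 and 0.56), and they changed by 2.27 and 1.13 at TP36, the latter short of the threshold. The other genes of that cluster, n-Tk12 and n-Tk13 for lysine, went from means of 1.57 and 1.81 to 3.30 and 3.52. n-Tp16, in the next cluster, stood at 4.11 and 5.02 at TP0 and at 5.34 and 4.63 at TP36.

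Among the members, position relative to other genes went along with occupancy. The same shares were not counted over the other tRNA genes, so that nothing particular to the members follows. All 20 members in a cluster of at least 3 tRNA genes were occupied, as were 20 of the 27 outside one. Those in the chromosome 1 repeat share fragments and are not separate observations. Of the 27 members within 1.5 kb of another Pol III locus 26 were occupied, with n-Tg15 as the exception. Of the 10 isolated members near a Pol II gene (closer than 2.65 kb, a class of the table) 9 were occupied, and of the 10 farther away 5 were. The numbers that rose after PH were 17 of 27, 6 of 10 and 5 of 10 in these classes, near the 53.6% of all loci.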

How the data were processed

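The deposited log2 values are ratios of RPC4 ChIP over input fragments per locus extended by 150 bp, computed by the authors on NCBI37/mm9 with a pseudocount of 16 and with fragment totals scaled to their median. Reads were aligned with ELAND, those with multiple matches were placed with fetchGWI and weighted, and only non-redundant fragments were kept. The deposited percent columns give the share of a score from multiple-match fragments.

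Members were chosen by name, and the members and lists were chosen with earlier results of these data known. Changes were fitted with limma 3.58.1 (R 4.3.3) over 646 loci and 8 libraries, with 1 mean per time point, and adjusted by Storey q values or Benjamini-Hochberg. The fit was tested on simulated data. Named in each anticodon family are the gene with the largest moderated t at TP36, that with the highest mean TP0 score and that with the lowest maximum, besides silent genes, genes in chromosome 1 clusters and pairs under 1.5 kb apart. Other genes were named after their values were seen. Replicate numbers come from the titles, which do not say what equal numbers share. Depth is unknown. The separate input files and the RPB2 and histone H3 samples were not used here.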

Additional observations from a re-analysis of the deposited data

How the results depend on the processing

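At TP36, TP48 and TP60 the number of members that rose was 12, 20 and 19, and for all times after PH 28. Relative to the median of all loci 6, 8, 8 and 8 were called higher and 25, 19, 23 and 27 lower (12.8 to 17% and 40.4 to 57.4% of the members, against 9.75 to 13.2% and 39 to 52.2% of all loci), and the median change of the members was -1.09, -0.67, -0.89 and -0.94. The changes at TP36 of n-Tg1 (-0.25), n-Tg13 (-1.49), n-Tg26 (-1.675), n-Tg23 (-0.55), n-Tp4 (-1.65), n-Tp8 (-1.06) and n-Tp18 (-1.26) then turned negative. With Benjamini-Hochberg the counts were 11, 11, 15 and 17. With only occupied loci in the fit they were 18, 38, 39 and 40. The last 3 counts take in every occupied member, so that this setting no longer separates the members. With only the time points compared they were 12, 36 and 24, a setting that does not exist for all times after PH. The share of all loci was not counted in either setting.

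When 1 replicate was left out, the counts ran from 4 to 27 at TP36, from 7 to 15 at TP48, from 10 to 36 at TP60 and from 10 to 37 after PH. The share of all loci was not counted under these omissions. The TP36 change ran from -0.80 to 0.79 for n-Tg7, from -0.46 to 0.92 for n-Tg13, from -0.31 to 0.41 for n-Tg26, from -0.39 to 0.53 for n-Tp4 and from -0.32 to 1.25 for n-Tp18. The median change after PH was 0.80 with replicate 1 alone and 1.02 with replicate 2 alone.

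Libraries with equal replicate numbers deviated together for some pairs of time points and not for others, and the numbers were not taken as pairs. The correlation of deviations over the members was 0.50 for TP48 with TP60, 0.20, 0.15 and 0.12 for TP0 with TP60, TP36 and TP48, -0.20 for TP36 with TP48 and -0.41 for TP36 with TP60. With the replicate block the counts were 12, 16, 18 and 27. Further settings were chosen after seeing the data. The block with Benjamini-Hochberg gave 4, 9, 11 and 14 members, only occupied loci with Benjamini-Hochberg gave 12, 12, 17 and 17, and only the time points compared with Benjamini-Hochberg gave 12, 31 and 18. Without the members in chromosome 1 clusters 7, 14, 13 and 22 remained among fewer members, and after centring on silent loci 12, 21, 26 and 22 rose. Apart from the settings that use fewer loci, members or libraries, the cause was not tested.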
